A study of Homo sapiens with 12 samples.

Results

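The ERK feedback genes described here are the dual-specificity phosphatases DUSP4, DUSP5 and DUSP6, the Sprouty genes SPRY2 and SPRY4, the Sprouty-related genes SPRED1 and SPRED2, and PHLDA1. They were taken from a list of names, drawn up with earlier results of these data known, and 8 of 8 were present among the 11548 genes of the expression table. RNA was sequenced from 3 human hepatocellular carcinoma (HCC) cell lines, all wild type by their labels, with 1 library for each of 4 treatments and 12 libraries in all. Cells were untreated, exposed to AZD8055, an inhibitor of the mTOR kinase, at 100 nM, exposed to compound #57, an allosteric inhibitor of the phosphatase SHP2, or exposed to both drugs together, with compound #57 at 5 µM. The dose of compound #57 given alone was not stated in the sources used here, so that a difference between the combination and compound #57 alone cannot be told apart from a difference in dose. Exposure lasted 48 h in Hep3B and Huh7 but 24 h in MHCC97H, and a difference between MHCC97H and the others cannot be told apart from a difference in time.

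Receptor tyrosine kinases (RTKs) activate RAS through adaptor proteins and SHP2, and RAS activates the kinase chain of RAF, MEK and ERK. Active ERK raises the transcription of genes that dampen the same chain, and for that reason the RNA of these genes is widely used as a readout of ERK output. DUSP4 and DUSP5 remove phosphate from ERK in the nucleus and DUSP6 does so in the cytoplasm. Sprouty proteins restrain signalling between the receptor and RAF, SPRED proteins bring the RAS inhibitor neurofibromin to the membrane, and PHLDA1 is a pleckstrin homology domain protein whose gene also responds to ERK and to cell stress.

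The libraries held between 10667343 and 15968317 reads. Levels are given as scaled reads, that is reads per 10000000 reads of the library, a scale on which 3 reads are worth between 1.88 and 2.81. A log2-fold change within a cell line is the difference between the log2(level + 1) values of 2 libraries, and its 95% interval is an exact interval (Clopper-Pearson) for the ratio between their read numbers, which covers counting error only and compares libraries, not conditions. Nothing in the labels says that the libraries had replicates, so tests were made across the cell lines as replicates, with limma. Of 12 hepatocyte markers, 12 were measured, and their summed level was between 254506 and 615257 in Hep3B, between 368910 and 523978 in Huh7 and between 53354.5 and 62156.8 in MHCC97H, where TTR had at most 3 reads in every library and ALB lay between 142 and 732. Over the cell lines the sum ran from 53354.5 to 448881 untreated, from 62156.8 to 368910 with AZD8055, from 55060.2 to 615257 with compound #57 and from 59000.3 to 406555 with the combination. Of markers of other cell types, 3 of 4 fibroblast genes, 1 of 3 endothelial genes (PECAM1) and 1 of 4 immune genes (LYZ) were measured, and DCN, VWF, CDH5, PTPRC, CD3E and CD68 were not analysed here. LYZ went from 1140 untreated to 381, 68.5 and 31.6 with AZD8055, compound #57 and the combination in Hep3B, and from 7512 to 1539.9, 1463 and 523 in Huh7, while in MHCC97H it was at most 4.91. The fibroblast sum lay between 98.9 and 289 in Hep3B, between 244 and 837 in MHCC97H and between 1085 and 1632 in Huh7, and PECAM1 between 5.72 and 17.3, between 285 and 541 and between 4.30 and 55.7. The part of these markers in the values below was not tested. In bulk RNA, fewer cells that express a gene and less RNA per cell cannot be told apart.

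The promoter windows of DUSP6 and SPRED2, the members limma called for the combination against untreated, of SPRY4, with the fewest reads in a library, and of PHLDA1, higher with compound #57 in Hep3B and Huh7, are shown, a choice made after these values were seen. They were taken from RefSeq (GRCh38.p14), from 250 bases before the transcript start to 50 bases after it, 5′ to 3′ on the strand of the gene. They lie at chr12:89352452-89352751 for DUSP6, chr5:142324198-142324497 for SPRY4, chr2:65432550-65432849 for SPRED2, the first of its 2 windows in that table, and chr12:76031727-76032026 for PHLDA1, all on the minus strand. Capitals mark GGAA, the core bound by ETS factors such as ETV4 and ETV5, TGACG, the core of the site of CREB-type factors, and TCAATGGA, a form of the octamer bound by the repressor CIC, on either strand.
DUSP6: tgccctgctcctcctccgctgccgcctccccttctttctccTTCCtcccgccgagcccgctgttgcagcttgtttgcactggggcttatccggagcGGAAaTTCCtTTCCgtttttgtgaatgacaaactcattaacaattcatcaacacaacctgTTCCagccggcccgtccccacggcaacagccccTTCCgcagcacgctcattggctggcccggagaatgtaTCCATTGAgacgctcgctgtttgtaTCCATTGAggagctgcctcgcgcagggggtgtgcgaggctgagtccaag
SPRY4: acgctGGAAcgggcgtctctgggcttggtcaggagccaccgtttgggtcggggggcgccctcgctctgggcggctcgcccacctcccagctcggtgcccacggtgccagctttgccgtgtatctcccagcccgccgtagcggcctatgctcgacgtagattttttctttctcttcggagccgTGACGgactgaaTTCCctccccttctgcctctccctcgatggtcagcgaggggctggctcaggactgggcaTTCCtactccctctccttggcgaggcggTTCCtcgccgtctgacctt
SPRED2: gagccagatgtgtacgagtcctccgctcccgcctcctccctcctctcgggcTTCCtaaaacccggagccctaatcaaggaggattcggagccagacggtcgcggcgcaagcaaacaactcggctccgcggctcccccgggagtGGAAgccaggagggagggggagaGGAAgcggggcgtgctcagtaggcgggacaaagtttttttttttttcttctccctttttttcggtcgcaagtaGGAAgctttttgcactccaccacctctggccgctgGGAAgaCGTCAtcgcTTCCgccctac
PHLDA1: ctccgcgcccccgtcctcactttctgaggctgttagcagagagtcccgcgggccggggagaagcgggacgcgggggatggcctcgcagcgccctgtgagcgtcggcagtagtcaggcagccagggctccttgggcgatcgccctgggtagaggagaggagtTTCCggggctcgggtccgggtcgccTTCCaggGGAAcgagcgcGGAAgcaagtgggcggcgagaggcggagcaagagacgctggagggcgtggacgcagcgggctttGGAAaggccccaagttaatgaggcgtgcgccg
GGAA stood 6 times in the DUSP6 window, 4 times in that of SPRY4, 6 times in that of SPRED2, 5 times in that of PHLDA1 and 3 times in each of those of SPRY2 and SPRED1, which are not printed, against a median of 3 over 27305 promoter windows (quartiles 2 and 5), of which 95.5% held it. TGACG stood once in the windows of SPRY4, SPRED2 and SPRY2, and 25.0% of all windows held it. TCAATGGA stood 2 times in the DUSP6 window, both on the strand opposite to the printed one, and in none of the other 5 member windows, and 0.491% of all windows held it. The whole site TGACGTCA (1.98% of windows), the ETS site CCGGAAG (10.7%), the AP-1 site TGANTCA (7.76%) and the other CIC octamers TGAATGAA, TGAATGGA and TCAATGAA (1.67%, 1.05% and 0.795%) were in none of the 6 member windows searched, those of DUSP6, SPRY2, SPRY4, SPRED1, SPRED2 and PHLDA1, on either strand. The promoters of the other two members were not analysed here. These matches describe letters in a short window and say nothing of which factor binds.

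The phosphatase DUSP6 had the second highest untreated level of the 8 genes per kilobase of exon and was lower with compound #57 in 3 of 3 cell lines. In Hep3B, DUSP6 stood at 923 scaled reads untreated, 609 with AZD8055, 11.5 with compound #57 and 64.8 with the combination. In MHCC97H, DUSP6 stood at 1766, 3516, 537 and 745 in the same order. In Huh7, DUSP6 stood at 1419.7, 1294, 318 and 292. Both groups with compound #57 lay below both groups without it in each cell line, and the lowest DUSP6 value, 18 reads in Hep3B, belonged to compound #57 alone. For Hep3B the log2-fold change with compound #57 was -6.21 (-7.09 to -5.66), for MHCC97H -1.72 (-1.85 to -1.59) and for Huh7 -2.16 (-2.31 to -2.01), where the brackets hold the 95% interval here and below. AZD8055 alone gave values of different sign, with 0.99 in MHCC97H (0.92 to 1.07), -0.60 in Hep3B (-0.74 to -0.46) and -0.13 in Huh7 (-0.23 to -0.04). Over the 3 cell lines, DUSP6 fell with the combination against untreated cells, with a mean log2-fold change of -2.45 (SE 0.70, adjusted p = 0.0234 in limma). The call held in 8 of 10 alternatives, whose adjusted p ran from 0.0129 to 0.587, and was lost without Huh7 (adjusted p = 0.125) and without the cell line term. Against untreated cells, compound #57 alone gave a mean of -3.36 (SE 0.70), larger in size but not past the threshold (adjusted p = 0.0912). DUSP6 is on chromosome 12 of hg38, from 89347235 to 89352501 on the minus strand (GENCODE 44).

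DUSP5, a nuclear phosphatase of ERK (chromosome 10, 110497907 to 110511533, plus strand), was lower with compound #57 in 3 of 3 cell lines as well. In Hep3B, DUSP5 was at 109 scaled reads untreated, 209 with AZD8055, 19.8 with compound #57 and 66.4 with the combination. In MHCC97H, DUSP5 was at 980 untreated and 770.2, 646 and 570.0 with the 3 treatments. In Huh7, DUSP5 was at 2301, 1492, 388 and 549.6. The difference between the compound #57 and the untreated library was thus smallest in MHCC97H, with a log2-fold change of -0.60 (-0.73 to -0.47). It was larger in Hep3B (-2.40, -3.08 to -1.87) and Huh7 (-2.57, -2.70 to -2.44). The Hep3B value rests on 31 reads with compound #57 and 116 untreated. With AZD8055, DUSP5 was higher in Hep3B (0.94, 0.62 to 1.27) and lower in MHCC97H (-0.35, -0.46 to -0.23) and Huh7 (-0.63, -0.71 to -0.54). Across the lines, limma gave -1.85 (SE 0.47, adjusted p = 0.102) for compound #57 and -1.18 (SE 0.47, adjusted p = 0.0726) for the combination, neither past the threshold.

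DUSP4 did not follow the other two phosphatases. This nuclear phosphatase of ERK lies on chromosome 8 of hg38, from 29333064 to 29350684 on the minus strand. In Hep3B, DUSP4 was read at 35.6 scaled reads untreated, 97.3 with AZD8055, 71.0 with compound #57 and 264.0 with the combination. In MHCC97H, DUSP4 was read at 1459, 2661, 836 and 959. In Huh7, DUSP4 was read at 433, 1318, 459 and 1219. AZD8055 was above untreated in 3 of 3 cell lines, with log2-fold changes of 1.42 (0.91 to 2.02) in Hep3B, 0.87 (0.79 to 0.95) in MHCC97H and 1.60 (1.48 to 1.74) in Huh7, a mean of 1.30 (SE 0.51) that did not pass the test (adjusted p = 0.135 in limma). With compound #57 alone, DUSP4 was higher in Hep3B (0.98, 0.45 to 1.57), lower in MHCC97H (-0.80, -0.92 to -0.69) and within counting error in Huh7 (0.08, -0.07 to 0.24). With the combination it was higher in Hep3B (2.86) and Huh7 (1.49) and lower in MHCC97H (-0.60). The Hep3B values rest on 38 reads untreated and 326 with the combination.

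Of the Sprouty genes, SPRY4 (chromosome 5, 142310427 to 142326455, minus strand) gave the lowest single value of the 8 genes. In Hep3B, SPRY4 stood at 530 scaled reads untreated, 873 with AZD8055, 1.92 with compound #57 and 62.4 with the combination. In MHCC97H, SPRY4 stood at 343, 349, 191 and 107. In Huh7, SPRY4 stood at 764, 804, 64.9 and 82.6. In each cell line both libraries with compound #57 lay below both libraries without it. The compound #57 library of Hep3B held 3 reads of SPRY4 against 565 untreated, a ratio of 0.00362, and the log2 of that ratio had a 95% interval from -10.39 to -6.55. In MHCC97H the log2-fold change with compound #57 was -0.84 (-1.08 to -0.61) and in Huh7 -3.54 (-3.89 to -3.24). With the combination, the values were -3.07 in Hep3B, -1.68 in MHCC97H and -3.19 in Huh7. The means over the lines were -3.96 (SE 1.09, adjusted p = 0.113 in limma) for compound #57 and -2.65 (SE 1.09, adjusted p = 0.0831) for the combination, and the second passed the threshold in 5 of 10 alternatives, where the adjusted p ran from 0.0227 to 0.472.

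SPRY2 (chromosome 13, 80335976 to 80341126, minus strand) was lower with compound #57 in 3 of 3 cell lines, but its combination value differed between them. In Hep3B, SPRY2 was measured at 292 scaled reads untreated, 428 with AZD8055, 64.6 with compound #57 and 159 with the combination. In MHCC97H, SPRY2 was measured at 162, 137, 95.6 and 167. In Huh7, SPRY2 was measured at 1014, 973, 244 and 331. In MHCC97H the combination library thus stood at the level of the untreated library (log2-fold change 0.04, -0.24 to 0.32), while it was lower in Hep3B (-0.88, -1.15 to -0.62) and Huh7 (-1.61, -1.78 to -1.45). With compound #57 alone the changes were -2.16 (-2.52 to -1.85) in Hep3B, -0.75 (-1.11 to -0.42) in MHCC97H and -2.05 (-2.23 to -1.88) in Huh7. Across the lines, limma gave -1.66 (SE 0.38, adjusted p = 0.0912) for compound #57 and -0.82 (SE 0.38, adjusted p = 0.118) for the combination.

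Both SPRED genes were lower with compound #57 in all 3 cell lines, and SPRED2 had the smallest spread of the 8 genes between untreated cell lines (SD 0.30 on the log2 scale, n = 3). In Hep3B, SPRED2 was at 1302 scaled reads untreated, 1316 with AZD8055, 434 with compound #57 and 759.6 with the combination. In MHCC97H, SPRED2 was at 858, 873, 600.2 and 526. In Huh7, SPRED2 was at 1069, 1116, 563 and 667. AZD8055 alone left it within counting error of the untreated library in each cell line, with log2-fold changes of 0.02 (-0.09 to 0.12), 0.02 (-0.09 to 0.14) and 0.06 (-0.04 to 0.17) in Hep3B, MHCC97H and Huh7. SPRED2 fell with the combination against untreated cells, by -0.78, -0.71 and -0.68 in the same order, a mean of -0.72 (SE 0.19, adjusted p = 0.0173 in limma). This call was kept in 8 of 10 alternatives, with an adjusted p between 0.0106 and 0.301, and was lost without Huh7 (adjusted p = 0.142) and without the cell line term. Compound #57 alone gave -1.58 in Hep3B, -0.52 in MHCC97H and -0.93 in Huh7, a mean of -1.01 (SE 0.19, adjusted p = 0.0912) not past the threshold. The gene lies on chromosome 2, from 65310851 to 65432637 on the minus strand.

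SPRED1, on chromosome 15 from 38252836 to 38357249 on the plus strand, had its highest levels in MHCC97H. In Hep3B, SPRED1 was at 359 scaled reads untreated, 415 with AZD8055, 60.1 with compound #57 and 159 with the combination. In MHCC97H, SPRED1 was at 1553, 1766, 1130.1 and 1020.3. In Huh7, SPRED1 was at 341, 450.2, 142 and 179.7. The highest library of Hep3B or Huh7 thus lay below the lowest of MHCC97H. Compound #57 gave log2-fold changes of -2.56 (-2.92 to -2.25) in Hep3B, -0.46 (-0.56 to -0.36) in MHCC97H and -1.26 (-1.51 to -1.02) in Huh7, a mean of -1.42 (SE 0.34, adjusted p = 0.093 in limma). The combination gave -1.17, -0.61 and -0.92, a mean of -0.90 (SE 0.34, adjusted p = 0.061), and neither mean passed the threshold.

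PHLDA1 (chromosome 12, 76025447 to 76031776, minus strand) gave values of opposite sign in the cell lines. In Hep3B, PHLDA1 was at 1146 scaled reads untreated, 1566 with AZD8055, 2735 with compound #57 and 2253 with the combination. In MHCC97H, PHLDA1 was at 4109.7, 4223, 2179 and 2320.4. In Huh7, PHLDA1 was at 714, 1162, 1949 and 1490.4. Compound #57 was thus above untreated in Hep3B and Huh7 and below it in MHCC97H, with log2-fold changes of 1.25 (1.16 to 1.35), 1.45 (1.35 to 1.55) and -0.92 (-0.98 to -0.85). The combination gave 0.97, 1.06 and -0.82 in the same order. Across the lines the means were 0.60 (SE 0.40, adjusted p = 0.409 in limma) and 0.40 (SE 0.40, adjusted p = 0.452).

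**Figure D1:**
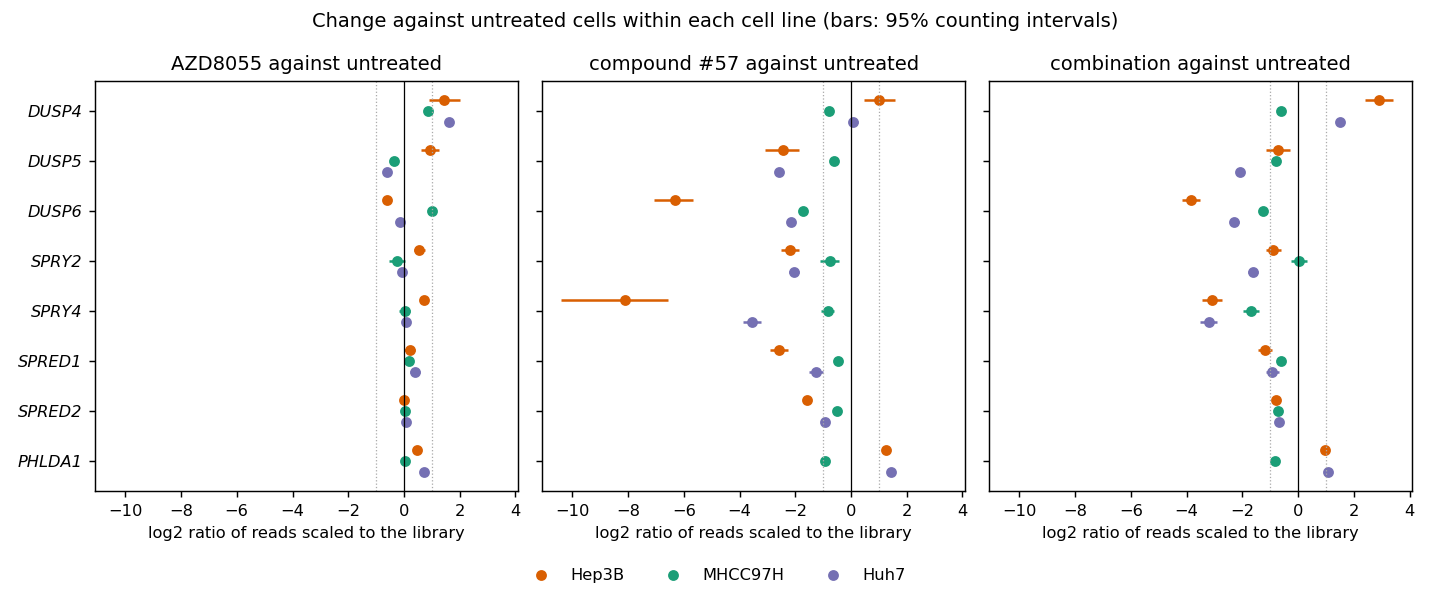
Log2 ratio of the reads of each treated library to those of the untreated library of the same cell line, scaled to the library, for the 8 genes and 3 treatments. Points are the ratios, bars the 95% counting intervals and dotted lines mark 2-fold. With compound #57, 6 genes in Hep3B, 1 in MHCC97H and 5 in Huh7 lie at least 2-fold below untreated.

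To set the members beside the rest of the transcriptome, genes at least 2-fold lower or higher were counted in each cell line. With compound #57 alone, 6 of the 8 genes were at least 2-fold lower in Hep3B, where 3.75% of all genes were, 1 of 8 (DUSP6) in MHCC97H, where 0.84% were, and 5 of 8 in Huh7, where 1.52% were. The median log2-fold change of the 8 genes was -2.28, -0.78 and -1.65 in that order, against 0.01, 0.08 and 0.03 over all genes. With the combination, 3 of 8 were at least 2-fold lower in Hep3B (6% of all genes), 2 of 8 in MHCC97H (4.72%) and 4 of 8 in Huh7 (6.46%), and the medians were -0.83, -0.74 and -1.27 against 0.06, 0.09 and 0.04. With AZD8055, DUSP4 was the member at least 2-fold higher in Hep3B (3.81% of all genes) and in Huh7 (5.89%), and 0 of 8 were in MHCC97H (7.14%), where DUSP6 was just inside 2-fold at 0.99. The medians with AZD8055 were 0.50 in Hep3B, 0.03 in MHCC97H and 0.07 in Huh7, against 0.02, 0.05 and -0.02 over all genes.

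With the cell lines as replicates, limma called 0 of the 8 members for AZD8055 against untreated (2.96% of all genes were called) and 0 of 8 for compound #57 against untreated, where it called 1 gene in all (0.00866%), and 2501 genes had an unadjusted p under 0.05. For the combination against untreated it called 2 of 8, DUSP6 and SPRED2, both lower, when 15.1% of all genes were called lower and 20.9% higher. These 3 comparisons share the untreated libraries. The counts for compound #57 and for the combination changed when a cell line was left out, most without MHCC97H, collected at 24 h, while that for AZD8055 stayed at 0. Without the 4 libraries of MHCC97H, limma called 7 of the 8 genes for compound #57 against untreated, 6 lower and PHLDA1 higher, and 6.74% of all genes. The means of the called genes were then -5.52 for SPRY4 (SE 0.98), -4.18 for DUSP6 (SE 0.83), -2.48 for DUSP5 (SE 0.39), -2.11 for SPRY2 (SE 0.24), -1.91 for SPRED1 (SE 0.31), -1.25 for SPRED2 (SE 0.18) and 1.35 for PHLDA1 (SE 0.13), each from 2 cell lines. For the combination against untreated, 8 of 8 were called without MHCC97H, 6 lower and DUSP4 and PHLDA1 higher, and 32.7% of all genes. Without Huh7, 0 of 8 were called for the combination, when 11 of all 11548 genes were, and without Hep3B 3 of 8, when 1797 of all genes were. Centring the libraries on their medians turned the split of all called genes from 2410 higher and 1744 lower to 1993 and 2229 for the combination, and from 255 and 87 to 256 and 217 for AZD8055.

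To learn what compound #57 did to these genes on top of AZD8055, the combination was set against AZD8055 alone. DUSP6, SPRY4, SPRED1, SPRED2 and DUSP5 were lower in 3 of 3 cell lines. At least 2-fold lower were 5 of the 8 genes in Hep3B (3.33% of all genes), 3 in MHCC97H (1.13%) and 5 in Huh7 (1.84%). For SPRY4 the log2-fold change was -3.79 (-4.16 to -3.47) in Hep3B, -1.70 (-2.00 to -1.43) in MHCC97H and -3.27 (-3.60 to -2.98) in Huh7. For DUSP6 they were -3.21, -2.24 and -2.15, and for SPRED2 -0.79, -0.73 and -0.74. SPRED2 gave nearly the same value in each line, whereas DUSP4 was higher in Hep3B (1.43), lower in MHCC97H (-1.47) and close to AZD8055 alone in Huh7 (-0.11). As a whole, limma called 0 of the 8 members and 0 of all genes (0%), although 1673 genes had an unadjusted p under 0.05. The voom test of limma on the reads also called 0, with 1794 at an unadjusted p under 0.05. The adjusted p of the members ran upward from 0.188 for SPRED2 (-0.75, SE 0.19).

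To learn what AZD8055 did on top of compound #57, the combination was set against compound #57 alone. In Hep3B, 6 of the 8 genes were at least 2-fold higher in the combination (2.68% of all genes), against 0 in MHCC97H (4.97%) and 1, DUSP4, in Huh7 (5.63%). DUSP6 had 18 reads with compound #57 and 80 with the combination in Hep3B (2.39 on the log2 scale, 1.74 to 3.32), and SPRY4 went from 3 to 77 reads, a ratio of 32.5 whose log2 had an interval from 3.42 to 7.33. DUSP4 (1.88, 1.58 to 2.22), DUSP5 (1.69, 1.13 to 2.39, from 31 to 82 reads), SPRED1 (1.39, 1.04 to 1.77) and SPRY2 (1.28, 0.94 to 1.66) were the other genes at 2-fold in that line. Their combination levels in Hep3B, apart from that of DUSP4, lay between those of compound #57 alone and untreated cells. In MHCC97H, SPRY4 was lower in the combination than with compound #57 alone (-0.84, -1.16 to -0.52), and in Huh7 the values of SPRY4 (0.34, -0.08 to 0.78) and DUSP6 (-0.12, -0.33 to 0.08) were within counting error. Across the lines, limma called 0 of 8 (4.18% of all genes), and the difference between Hep3B and the other lines was not tested, since each line had 1 library per treatment.

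**Figure D2:**
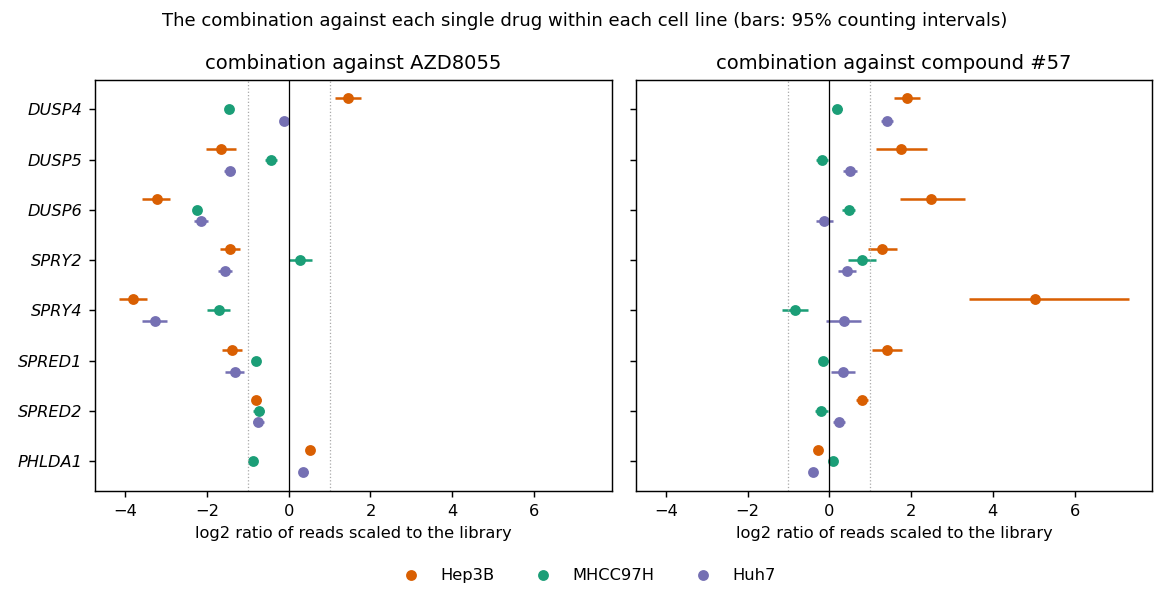
Log2 ratio of the reads in the combination to those with AZD8055 alone (left) or compound #57 alone (right) in each cell line, with 95% counting intervals and dotted lines at 2-fold. Against AZD8055, DUSP6 and SPRY4 lie left of the 2-fold line in all 3 cell lines, and against compound #57, 6 of the 8 genes in Hep3B lie right of it.

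The combination was also compared with the sum of both single-drug changes. In Hep3B, 7 of the 8 genes were above the sum (52.3% of all genes), with a median difference of 0.77 against 0.02 over all genes. The difference was 3.72 for SPRY4, with 3 reads under compound #57, 2.99 for DUSP6 and 1.18 for SPRED1, and PHLDA1 was below the sum (-0.73). In MHCC97H, 3 of 8 were above it (42.6% of all genes, median -0.27 against -0.04 over all genes) and SPRY4 was at -0.86. In Huh7, 5 of 8 were above it (50.1% of all genes, median 0.10 against 0.00), with DUSP5 at 1.13 and PHLDA1 at -1.09. Limma called 0 of the 8 members and 0 of all genes in this comparison (0%), with 178 genes at an unadjusted p under 0.05, and voom called 0, with 218.

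**Figure D3:**
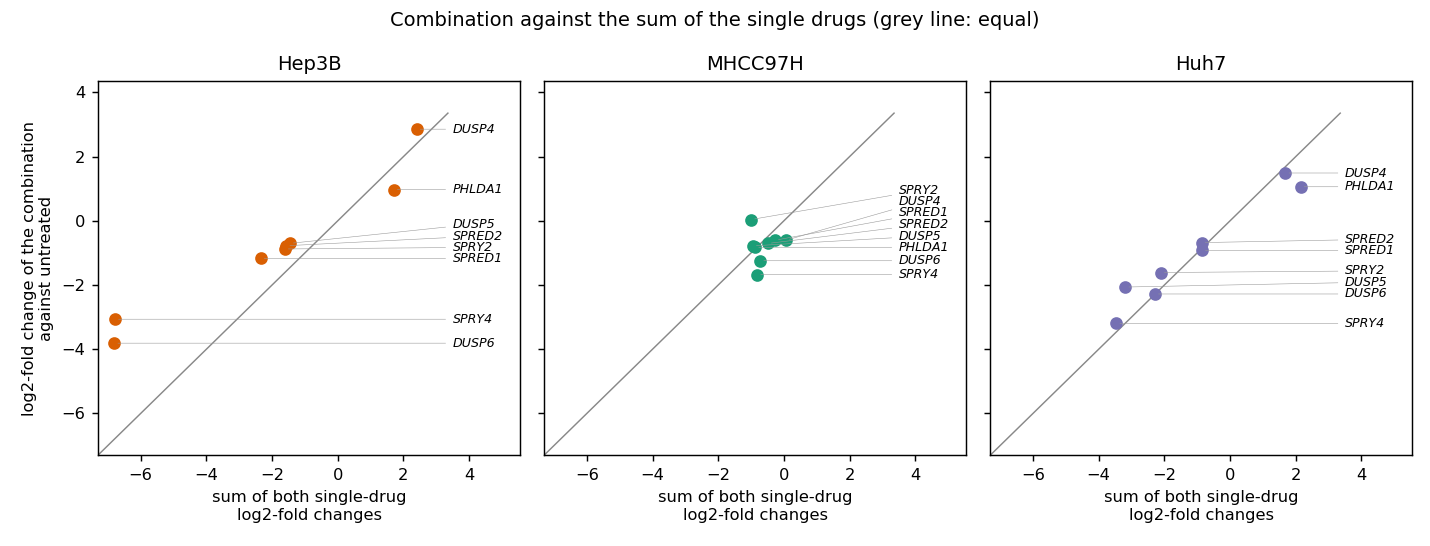
Log2-fold change of the combination against untreated (vertical) and the sum of the changes with AZD8055 and with compound #57 (horizontal) for the 8 genes, 1 panel per cell line. The grey line marks equality. In Hep3B, 7 of the 8 genes lie above it, by 3.72 for SPRY4, against 3 in MHCC97H and 5 in Huh7.

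The cell lines were also compared in the levels of these genes. Per kilobase of exon, the median untreated level over the 3 lines was highest for DUSP5 (386 scaled reads per kb), followed by DUSP6 (368), SPRED2 (194), PHLDA1 (194), SPRY2 (91.0), SPRY4 (80.8), DUSP4 (59.6) and SPRED1 (46.3). The spread between lines was wide, with means ± SD (n = 3) of 446 ± 436 for DUSP5, 355 ± 110 for DUSP6, 196 ± 40.3 for SPRED2 and 337 ± 313 for PHLDA1. Among neighbours in that order, DUSP6 and SPRED2 were the pair whose means ± SD did not overlap. Without division by exon length, DUSP6 and PHLDA1 led.

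Over the 4 treatments, limma called 4 of the 8 genes between MHCC97H and Hep3B (67.8% of all genes were called), all higher in MHCC97H. These were DUSP4 (log2 difference 3.87, SE 0.44, adjusted p = 2.9e-05), DUSP5 (3.27, SE 0.40, adjusted p = 5.4e-05), DUSP6 (3.10, SE 0.61, adjusted p = 0.00117) and SPRED1 (2.77, SE 0.29, adjusted p = 1.7e-05). The same 3 phosphatases were lower in Hep3B than in Huh7, by -3.05 for DUSP4, -3.62 for DUSP5 and -2.13 for DUSP6, together with SPRY2 (-1.48, SE 0.33, adjusted p = 0.00372), which makes 4 of 8 (55.1% of all genes). Between MHCC97H and Huh7, 3 of 8 were called (70.2% of all genes), with SPRED1 (2.41, SE 0.29) and PHLDA1 (1.30, SE 0.35) higher and SPRY2 (-1.95, SE 0.33) lower in MHCC97H. These shares of called members lie below those of all genes, and the libraries of a line are not replicates of it but differ in treatment.

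To find out which genes varied together, the log2 values were centred within each cell line and correlated over the 12 libraries, which share treatments, cell lines and depth. DUSP5, DUSP6, SPRY2, SPRY4, SPRED1 and SPRED2 had correlations among each other between 0.86 (DUSP5 and DUSP6) and 0.99 (SPRY4 and SPRED1). DUSP4 had correlations between -0.08 and 0.06 with these 6 genes, and PHLDA1 between -0.66 and -0.49. Of 10657 other genes with at least 10 reads in every library, ABI2, a subunit of the WAVE actin regulator, was most like DUSP6 (r = 0.98), SPRY4 (0.98), SPRED1 (0.97) and SPRED2 (0.97). The ETS factor genes ETV4 and ETV5 came next for DUSP6 (0.97 for both), ETV5 and MYC for SPRY4 (0.97 for both), MYC and RASSF9 for SPRED1 (0.96 for both), and DAZAP1 and ETV5 for SPRED2 (0.96 for both). DUSP5 was most like MYC (0.97), TRMT61A (0.95) and PCF11 (0.93), and SPRY2 most like EXOSC5, ICAM1 and CDYL (0.95, 0.95 and 0.94). DUSP4 was closest to FLNA (0.97), FLJ42627 (0.95) and MAP4K4 (0.94), and PHLDA1 to FOXA2 (0.94), F2RL1 (0.93) and SERPINB9 (0.91). The values were not scaled within a cell line, so that a line with larger changes weighs more, as Hep3B does for SPRY4 and DUSP6 with compound #57. SPRY4 had 3 reads in that Hep3B library. The correlations are given as a description, with no test.

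The other genes of the pathway were taken from 4 lists. Among transcripts known to follow ERK activity, 13 of 15 were analysed, without FOSL1 and EPHA4, and limma called 5 lower and 2 higher in the combination against untreated, when it called 15.1% of all genes lower and 20.9% higher. The lower genes included the ETS factors ETV1 (-2.29, SE 0.38, adjusted p = 0.00375), ETV4 (-2.67, SE 0.65, adjusted p = 0.0131) and ETV5 (-2.49, SE 0.80, adjusted p = 0.0365) and the immediate-early factor EGR1 (-3.51, SE 1.09, adjusted p = 0.0324), each lower in 3 of 3 cell lines. ETV4 went from 400.3 to 23.5 scaled reads in Hep3B, from 473 to 144 in MHCC97H and from 1133 to 235 in Huh7. With compound #57 alone, 8 of the 13 were at least 2-fold lower in Hep3B (3.75% of all genes), 3 in MHCC97H (0.84%) and 7 in Huh7 (1.52%). The medians were -1.20, -0.76 and -1.13, and limma called 0. In that comparison ETV4 (-5.33, -1.86 and -2.57 in Hep3B, MHCC97H and Huh7), ETV1 (-3.14, -1.30 and -2.23) and EPHA2, an ephrin receptor (-1.20, -1.15 and -1.13), were at least 2-fold lower in every line. MAFF, a small MAF factor, rose in limma with AZD8055 (1.64, SE 0.24, adjusted p = 0.0268) and with the combination against untreated (1.20, SE 0.24, adjusted p = 0.00616). It was also higher in the combination against compound #57 (1.65, SE 0.24, adjusted p = 0.0162 in limma). MAFF levels with compound #57 alone were 42.2 scaled reads against 54.4 untreated in Hep3B, 57.0 against 56.8 in MHCC97H and 71.5 against 143 in Huh7.

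Of 10 other dual-specificity phosphatases listed, 9 were analysed, without DUSP2, and limma called 6 higher and 1 lower in the combination against untreated (20.9% and 15.1% of all genes), 0 in the other treatment comparisons. DUSP1, a nuclear phosphatase of p38, JNK and ERK, went from 138 scaled reads untreated to 942 with AZD8055, 880.4 with compound #57 and 1913 with the combination in Hep3B. It went from 284 to 2199, 622 and 2547 in Huh7 and from 141 to 134, 159.7 and 306 in MHCC97H, and its mean change with the combination was 2.68 (SE 0.54, adjusted p = 0.0064). DUSP8 (2.01, SE 0.26, adjusted p = 0.00221), DUSP10 (1.56, SE 0.29, adjusted p = 0.00502) and DUSP16 (0.96, SE 0.16, adjusted p = 0.00357), phosphatases of JNK and p38, rose with it. DUSP7, a cytoplasmic phosphatase of ERK like DUSP6, fell (-0.91, SE 0.21, adjusted p = 0.0101), with values of -0.60, -1.07 and -1.05 for Hep3B, MHCC97H and Huh7. Its level with compound #57 alone was 80.6 scaled reads against 124.7 untreated in Hep3B, 161 against 184 in MHCC97H and 81.8 against 135 in Huh7. AZD8055 alone gave DUSP7 levels of 121, 139 and 78.9 in the same order. In MHCC97H and Huh7 these lay slightly below the levels with compound #57 (78.9 against 81.8 in Huh7). No counting interval was computed for DUSP7, and the order of the drugs was not tested.

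Of 15 other inhibitors of RTK and RAS signalling, 12 were analysed, without SPRY3, SPRED3 and PHLDA3, and limma called 5 higher and 3 lower in the combination against untreated (20.9% and 15.1% of all genes). SPRY1, the third Sprouty gene measured, fell (-2.18, SE 0.60, adjusted p = 0.0202), from 402 to 32.4 scaled reads in Hep3B, from 299 to 53.3 in Huh7 and from 270.2 to 193 in MHCC97H. SOCS2, a suppressor of cytokine signalling, rose (4.22, SE 0.67, adjusted p = 0.00334), from 2.81 to 377, from 8.14 to 98.9 and from 111 to 669 in the same order, and its untreated level in Hep3B was 3 reads. RASA1 (0.46, SE 0.16, adjusted p = 0.048) and RASA2 (0.49, SE 0.15, adjusted p = 0.0325), which switch off RAS, were called higher. PHLDA2, a relative of PHLDA1, was called lower (-1.27, SE 0.43, adjusted p = 0.0418), although it was at 0.11 in Hep3B. In Huh7, PHLDA2 had only 6 reads untreated and 1 with the combination, while in MHCC97H it had 628 and 99.

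The last list held the kinases and adaptors of the cascade itself. Of 20 genes, 20 were analysed, and limma called 4 higher and 1 lower in the combination against untreated and 0 in the other treatment comparisons. The share called higher was near that of all genes (20.9%), and 15.1% of all genes were called lower. SOS1 (1.09, SE 0.17, adjusted p = 0.00301) and SOS2 (0.996, SE 0.20, adjusted p = 0.00621), which load RAS with GTP, GAB1 (1.10, SE 0.20, adjusted p = 0.00443), an adaptor that binds SHP2, and BRAF (0.49, SE 0.14, adjusted p = 0.0201) rose, and the adaptor GRB2 fell (-0.40, SE 0.10, adjusted p = 0.016). With compound #57 alone the 20 genes had a median change of 0.13 for Hep3B, 0.12 for MHCC97H and 0.02 for Huh7. At least 2-fold lower were 1, 0 and 0 of them (3.75%, 0.84% and 1.52% of all genes). At least 2-fold higher were 1, 2 and 0, when 1035, 360 and 511 of all 11548 genes were. The 8 feedback genes had medians of -2.28, -0.78 and -1.65 in the same libraries, and the difference between the lists was not tested.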

How the data were processed

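Poly(A) RNA of Hep3B, MHCC97H and Huh7 cells was sequenced from stranded libraries, and the submitters' processing notes name the build hg38. The authors deposited 1 log2 value per gene and library for 11548 genes; the aligner, the counting and the normalization are not given in the sources used here. The deposited log2 values equal log2(reads × 10000000 / library reads + 1) + 0.001. This was worked out from the values, of which 100% gave whole reads within 0.001, and it gave library totals between 10667343 and 15968317 reads. No column was left without a sample.

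Limma 3.58.1 (R 4.3.3) was fitted to all 12 libraries and 11548 genes by lmFit, the terms being treatment and cell line, followed by eBayes with trend, with Benjamini-Hochberg adjustment over all genes and a threshold of 0.05. Same-numbered libraries form pairs because they come from the same cell line, and p-values of treatment comparisons measure the spread of the changes between cell lines. Those of comparisons between cell lines measure the spread of the line differences over the 4 treatments, with 1 library each, and not between replicate cultures of a line. Within a cell line no p-value was computed, and 2-fold was the threshold. The alternatives were 10 added rather than 1, a fit restricted to the top 75% of genes by mean, libraries centred on their medians, eBayes without trend, voom on the reads, no cell line term, the libraries compared alone, each cell line or treatment left out, 1.5-fold, and levels without exon length. Fits were tested on simulated data.

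Named genes are the 8 members, the list genes called or changed at least 2-fold alike in all 3 cell lines (at most 5 per list and comparison), and the 3 genes most correlated with each member. The members and lists were chosen with earlier results of these data known. Symbols were used as they stand. Of them, 18 are numbers and 4 stand on 2 lines each, none a member. Positions and exon lengths came from GENCODE 44, promoters from RefSeq, with Python 3.11.15, pandas 2.3.3 and scipy 1.17.1.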

Additional observations from a re-analysis of the deposited data

Results flagged for a closer look

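In 13 of 40 pairs of a gene and a treatment comparison, the 95% counting intervals of 2 cell lines lay on opposite sides of 0. With 1 library per condition none of these differences was tested, the intervals cover counting error only, and MHCC97H was also collected at another time than Hep3B and Huh7.

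DUSP4 did so in 3 comparisons, each with MHCC97H below 0 and Hep3B above it. Its largest difference between cell lines in log2-fold change was 1.78 for compound #57 against untreated, 3.46 for the combination against untreated and 2.90 for the combination against AZD8055. PHLDA1 did so in 4. MHCC97H was below 0 with Hep3B and Huh7 above it, with differences of 2.36 for compound #57 against untreated, 1.89 for the combination against untreated and 1.39 for the combination against AZD8055. In the combination against compound #57 the signs were the other way round, with a difference of 0.48.

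With AZD8055 against untreated, DUSP5 was above 0 in Hep3B and below it in MHCC97H and Huh7, with a difference of 1.56, and DUSP6 was above 0 in MHCC97H and below it in Hep3B and Huh7, with a difference of 1.59. In the combination against compound #57, 4 genes besides PHLDA1 were above 0 in Hep3B and below it in MHCC97H. Their differences were 5.28 for SPRY4, 1.87 for DUSP5, 1.53 for SPRED1 and 0.996 for SPRED2. The SPRY4 value rests on 3 reads in the compound #57 library of Hep3B.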

How the results depend on the processing

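Of 712 member log2-fold changes recomputed in limma, 660 kept their direction and their side of the threshold. The count of members called for compound #57 against untreated went from 0 to 1 with voom and ranged from 0 to 7 when a cell line was left out, the 7 without MHCC97H. For the combination against untreated it went from 2 to 4 with the libraries compared alone and to 0 without the cell line block, and ranged from 0 without Huh7 to 8 without MHCC97H. In the other treatment comparisons the count was 0 with the block, that is the pairing by cell line, so it could not fall. Without the block it was 0 there too. Comparisons between cell lines were not refitted in this setting. Between MHCC97H and Huh7 the count went from 3 to 5 with the libraries compared alone, when 7886 of all 11548 genes were called. The cause of these changes was not tested. Signs reversed for DUSP4 with compound #57 (-0.21) and SPRY4 between MHCC97H and Hep3B (-0.19) with voom, and for PHLDA1 in the combination against AZD8055 (-0.0325) with centring.

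When a cell line was left out, signs reversed in these ranges. With AZD8055 against untreated, DUSP5 ran from -0.49 to 0.30, DUSP6 from -0.37 to 0.43 and SPRY2 from -0.15 to 0.24. DUSP4 ran from -0.36 to 0.53 with compound #57 against untreated and from -0.79 to 0.66 in the combination against AZD8055, where PHLDA1 ran from -0.25 to 0.44. SPRY4 ran from -0.25 to 2.39 in the combination against compound #57. Against the sum of both single drugs, the ranges were -0.43 to 0.13 for DUSP4, -0.26 to 1.502 for DUSP6, -0.29 to 1.99 for SPRY4, -0.20 to 0.56 for SPRED1 and -0.015 to 0.49 for SPRED2, with each lower end without Hep3B. When a treatment was left out, SPRY4 ran from -0.39 to 2.06 between MHCC97H and Hep3B and from -0.66 to 0.25 between MHCC97H and Huh7.

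Over all genes, limma called 1 gene for compound #57 against untreated, 90 with voom, 778 without MHCC97H and 0 with the libraries compared alone. For AZD8055 against untreated it called 342, between 0 and 109 when a cell line was left out and 2 with the libraries compared alone. For the combination against untreated it called 4154, between 11 and 3778 when a cell line was left out and 1889 with the libraries compared alone. For the combination against compound #57 it called 483, between 0 and 331 when a cell line was left out, 265 with the libraries compared alone and 286 without trend. For the combination against AZD8055 it called 0, and 3 without MHCC97H. Without the cell line block, limma called 0 genes in each of these 5 comparisons, with between 113 and 1268 at an unadjusted p under 0.05.

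Within cell lines, 239 of 240 log2-fold changes kept their side of 2-fold with 10 added or with centring. At 1.5-fold, 8 of 15 counts of members moved by over 1.5 times. Without division by exon length, 7 of 8 ranks of level moved. With 1 library per condition, member values with few reads (SPRY4, DUSP6 and DUSP5 with compound #57 and DUSP4 untreated, all in Hep3B) are the least precise.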
